A study of Rattus norvegicus with 54 samples.

Results

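The 10 genes described here encode enzymes and a chaperone that act on collagen and elastin: the prolyl 4-hydroxylase alpha subunits P4ha1, P4ha2 and P4ha3, the lysyl hydroxylases Plod1 and Plod2, the collagen chaperone Serpinh1, and the lysyl oxidases Lox, Loxl1, Loxl2 and Loxl3. They were found by their symbols in the count tables of all 54 libraries, and all 10 were present among the 40319 genes listed. All 10 also passed the filter on low counts in every comparison. The libraries were made from poly-A RNA of left ventricular tissue of 18 female nude rats (F344/NJcl-rnu/rnu, 8 weeks old), which lack mature T cells, and hearts were taken 1 week after surgery. The sham group had surgery without infarction and received no cells. The untreated MI group had a permanent ligation of the left anterior descending coronary artery, and the cell sheet-treated group had the same ligation followed by placement of a bi-level sheet of human endothelial progenitor cells and human smooth muscle cells, derived from mesenchymal stem cells, on the epicardium of the ischemic area. From each heart the tissue below the stitch was divided into an infarct zone (anterior wall), a border zone (lateral wall) and a remote zone (septum), so that each of the 9 groups held 6 libraries from 6 animals. The labels call these technical replicates while the study's methods give 6 hearts a group, so each library was counted as 1 animal, and p-values measure the spread between these libraries. The sham hearts have no infarct, and their pieces carry the zone names by position. Reads were aligned to the rat assembly and counted over rat genes, and transcripts of the transplanted human cells were not analysed here. Whether reads from these human cells were counted on rat genes in cell sheet-treated tissue was not checked.

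Fibrillar procollagen chains are modified in the endoplasmic reticulum before they are secreted. Prolyl 4-hydroxylase is a tetramer of alpha subunits and P4hb (protein disulfide isomerase), and its product 4-hydroxyproline stabilizes the collagen triple helix. Lysyl hydroxylases modify lysines that later form cross-links or carry sugars, Serpinh1 (HSP47) binds the folded procollagen helix, and lysyl oxidases outside the cell convert lysines of collagen and elastin to the aldehydes from which cross-links form. In an infarcted heart these steps belong to the building of the scar, which activated fibroblasts, called myofibroblasts, carry out.

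Promoter sequences were taken from RefSeq on the GRCr8 assembly, in which 8 of the 10 genes had an entry (250 bases before to 50 bases after the start of the gene). Lox and Loxl2 had none. The letters ACGTG, a form of the core that hypoxia-inducible factors bind, were searched on both strands (reverse complement CACGT). The reason was that P4ha1, P4ha2 and Plod2 are textbook targets of these factors. The other form, GCGTG, was not searched, so the core here means ACGTG alone. The letters ACGTG or CACGT stood in the promoters of 3 of the 8 genes, P4ha1, P4ha2 and Plod2, against 19.3% of all 33469 promoters of the same length. P4ha1 held the letters 12 bases after the start. The GC box (GGGCGG or CCGCCC) stood in 6 of the 8, against 33.1% of all promoters, and the AP-1 site (TGACTCA or TGAGTCA) in 0 of 8, against 4.63%. No match of one motif overlapped a match of another. The 250 bases before the start are shown for P4ha2 and Plod2, which hold the core in this stretch, and for P4ha3, which differed most between untreated MI and sham hearts in the infarct and border zones and does not hold it. The capitals mark ACGTG or CACGT. P4ha2 lies on chr10:38743644-38743893 (plus strand), with the core 133 and 41 bases before the start. Plod2 lies on chr8:101964068-101964317 (plus strand), with the core 178 and 133 bases before the start. P4ha3 lies on chr1:164040614-164040863 (plus strand).
P4ha2: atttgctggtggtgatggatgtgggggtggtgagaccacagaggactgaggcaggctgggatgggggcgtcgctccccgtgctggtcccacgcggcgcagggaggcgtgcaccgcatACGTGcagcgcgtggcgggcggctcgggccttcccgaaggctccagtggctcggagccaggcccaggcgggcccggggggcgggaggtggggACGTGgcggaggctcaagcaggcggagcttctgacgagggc
Plod2: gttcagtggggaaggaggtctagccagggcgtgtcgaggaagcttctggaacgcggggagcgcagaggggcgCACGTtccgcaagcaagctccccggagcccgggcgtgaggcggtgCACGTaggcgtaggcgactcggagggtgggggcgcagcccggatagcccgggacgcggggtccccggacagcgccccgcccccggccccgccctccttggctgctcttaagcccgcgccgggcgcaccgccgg
P4ha3: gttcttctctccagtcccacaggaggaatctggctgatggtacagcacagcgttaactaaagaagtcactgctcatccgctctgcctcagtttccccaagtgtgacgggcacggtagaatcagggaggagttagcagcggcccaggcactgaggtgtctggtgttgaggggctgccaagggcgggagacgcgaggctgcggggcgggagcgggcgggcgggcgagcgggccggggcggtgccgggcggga
These letters describe the sequence only, and nothing about binding follows from them.

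The libraries held between 12699204 and 23397754 counts on genes, so counting error was small for all 10 genes but P4ha3, which had as few as 3 counts in a library. Each level is a CPM value, a count scaled to library size with TMM factors over the 54 libraries. Transcript lengths were not used, so levels are compared between groups and not between genes. The heart tissue was checked by the summed level of 8 cardiomyocyte genes, which lay between 19400 and 64700 CPM in the sham pieces and between 188 and 38500 CPM in the infarct and border zones of both infarcted groups. No gene of any cell type list was at 0 in all libraries of a group.

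Several libraries stood apart from their groups. Cell sheet replicate 1 had the highest level of all 10 genes in the remote zone, for example 382 CPM of Plod2 against 23.4 to 90.3 CPM in the other 5 animals. Its remote piece also held 10900 CPM of Col1a1 (425 to 2360 CPM in the others), a summed level of 3940 CPM of 6 myofibroblast genes (219 to 527 CPM in the others) and 22700 CPM of the cardiomyocyte genes (44300 to 63100 CPM). Its border piece stood apart too, with 188 CPM of the cardiomyocyte genes against 8830 to 38500 CPM in the others. That piece was the highest of its group for 5 of the 10 genes. Sham replicate 5 was the highest sham library for 6, 5 and 6 of the 10 genes in its infarct, border and remote pieces, always for P4ha1, Plod2, Loxl1 and Loxl3. It held 11700, 11700 and 6610 CPM of 6 macrophage genes in these pieces, against 253 to 647 CPM in the other sham libraries. Its cardiomyocyte level was 20900, 19400 and 34300 CPM, against 50500 to 64700 CPM in the other sham libraries. Its myofibroblast level was 428, 384 and 410 CPM, against 78.5 to 166 CPM. MI replicate 1 was the lowest of its group for 10 of 10 genes in the infarct zone and for 9 of 10 in each of the other zones. In the infarct zone it also had the highest cardiomyocyte level of its group, 33700 CPM. Cell sheet replicate 6 was the lowest for 9 of 10 genes in the infarct zone, where its cardiomyocyte level was the highest of its group at 31100 CPM. Where a call changed without cell sheet replicate 1 or sham replicate 5, the value of the gene or the count of genes without that animal is given.

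**Figure D1:**
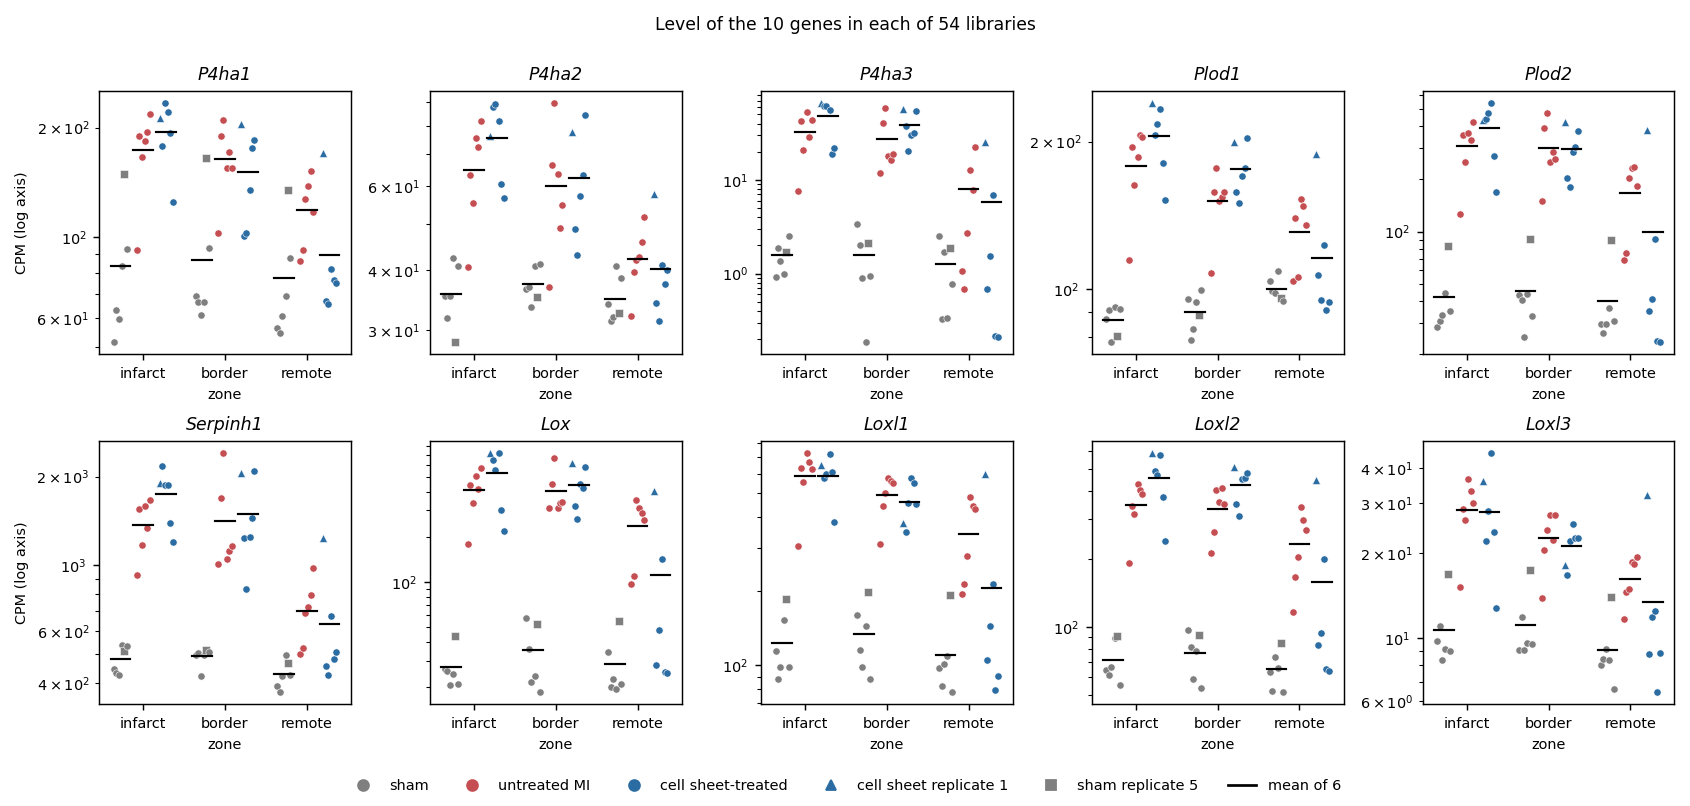
Level of each gene in every library, in CPM on a log axis, by zone (x axis) and treatment (colour), with the mean of 6 libraries as a black line. Triangles mark cell sheet replicate 1, which in the remote zone lies above the other 5 animals for all 10 genes (Plod2, 382 against at most 90.3 CPM), and squares mark sham replicate 5.

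All 10 genes were higher in the infarct zone of untreated MI hearts than in the same wall of sham hearts, by 1.81-fold for P4ha2 up to 20.5-fold for P4ha3. The border zone gave the same count of 10, and the remote zone 8. With edgeR's quasi-likelihood test and adjustment over all genes, 22.7% of the 15758 genes tested in the infarct zone were called higher, 18.4% of border zone genes and 11.7% of remote zone genes. The median log2 fold change of the 10 genes was 1.87 for the infarct, 1.70 for the border and 1.23 for the remote zone, where the medians of all genes were -0.02, -0.02 and -0.04. The libraries of sham and untreated MI hearts did not overlap for 7 of the 10 genes at the infarct, 7 at the border and 4 at the remote position. Of all genes tested, 8.74%, 6.73% and 3.89% were higher in this way. Markers of cell types moved too: 6 of 6 myofibroblast genes were higher and 7 of 8 cardiomyocyte genes lower in the infarct zone. The summed myofibroblast level lay between 1070 and 4200 CPM in untreated MI and between 78.5 and 428 CPM in sham infarct zones. The macrophage level lay between 2170 and 11200 CPM in untreated MI infarct zones. In those of sham it lay between 319 and 647 CPM, apart from sham replicate 5 at 11700 CPM. The fibroblast level overlapped, at 4960 to 7210 CPM in untreated MI and 4150 to 8200 CPM in sham. In bulk tissue, fewer cells of a type and less RNA per cell cannot be told apart, and the part of cell composition in these differences was not tested.

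Among the prolyl 4-hydroxylase subunits, P4ha3 differed most. It lay between 0.925 and 2.54 CPM (median 1.54) in sham infarct zones, between 7.67 and 52.8 CPM (median 35.7) in untreated MI infarct zones, and between 18.9 and 66.8 CPM (median 58.5) in cell sheet-treated ones. Every infarcted heart was above every sham heart, and MI replicate 1 was the lowest of the infarcted hearts. The log2 fold change of untreated MI against sham was 4.36 ± 0.45 (SE, edgeR adjusted p = 6.19e-05) in the infarct zone and 4.11 ± 0.60 (adjusted p = 0.000654) at the border. In the remote zone the 2 groups overlapped, at 0.332 to 2.55 CPM in sham and 0.683 to 22.6 CPM in untreated MI (2.64 ± 0.82, edgeR adjusted p = 0.0306), and the gene passed in 5 of the 12 fits that left out 1 animal.

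P4ha1, the alpha subunit found in most tissues, lay between 51.6 and 149 CPM (median 73.2) in sham and between 92.6 and 218 CPM (median 186) in untreated MI infarct zones. The groups overlapped because MI replicate 1, the lowest of the infarcted ones, lay below sham replicates 5 (149 CPM) and 6 (92.9 CPM). The log2 fold change was 1.05 ± 0.27 (edgeR adjusted p = 0.00778). In the remote zone the difference was 0.62 ± 0.23 and did not pass (adjusted p = 0.0624), while without sham replicate 5 it was 0.86 and passed (adjusted p = 0.000629).

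P4ha2 lay between 28.3 and 42.5 CPM (median 35.4) in sham and between 40.6 and 82.3 CPM (median 67.9) in untreated MI infarct zones. Only MI replicate 1 lay within the range of the sham libraries. Its log2 fold change was 0.85 ± 0.16 (edgeR adjusted p = 0.0018) in the infarct zone, the smallest of the 10 genes, and 0.28 ± 0.11 in the remote zone (adjusted p = 0.0883). P4hb, the partner of all alpha subunits, was higher by 1.13 ± 0.17 on the log2 scale in the infarct zone (edgeR adjusted p = 0.000524).

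Of the lysyl hydroxylases, Plod2 acts on the ends of the collagen chains and so sets the type of cross-link, while Plod1 acts on the helix. Plod2 lay between 28.5 and 83.3 CPM (median 34.2) in sham, between 126 and 424 CPM (median 345) in untreated MI and between 169 and 544 CPM (median 437) in cell sheet-treated infarct zones. The sham libraries did not overlap with either infarcted group, although sham replicate 5 was well above the others of its group. The log2 fold change of untreated MI against sham was 2.84 ± 0.34 (edgeR adjusted p = 0.000128) in the infarct zone, 2.71 ± 0.34 at the border and 2.02 ± 0.39 in remote tissue.

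Plod1 lay between 78.1 and 92.3 CPM (median 88.8) in sham and between 115 and 206 CPM (median 190) in untreated MI infarct zones, with no overlap. Its log2 fold change was 1.03 ± 0.13 (edgeR adjusted p = 0.000192) in the infarct zone and 0.38 ± 0.10 (adjusted p = 0.0181) in the remote zone, where 104 to 153 CPM in untreated MI overlapped with 94.6 to 109 CPM in sham. Plod3, the third lysyl hydroxylase and not one of the 10 genes, was higher by 1.16 ± 0.16 in the infarct zone (edgeR adjusted p = 0.000357).

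The chaperone Serpinh1 lay between 426 and 538 CPM (median 478) in sham, between 932 and 1670 CPM (median 1440) in untreated MI and between 1200 and 2170 CPM (median 1870) in cell sheet-treated infarct zones. Sham hearts did not overlap with untreated MI hearts in any zone, down to the remote zone with 372 to 499 CPM in sham and 500 to 984 CPM in untreated MI. The log2 fold change was 1.5 ± 0.16 (edgeR adjusted p = 7.42e-05) for the infarct, 1.52 ± 0.22 for the border and 0.71 ± 0.16 for the remote zone.

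Lox, the oxidase that gives the family its name, had the largest difference among the lysyl oxidases. It lay between 20.8 and 44 CPM (median 25.2) in sham and between 178 and 573 CPM (median 429) in untreated MI infarct zones. In the remote zone untreated MI hearts still held 96.8 to 352 CPM against 19.5 to 54.7 CPM in sham, with no overlap. The log2 fold change was 3.90 ± 0.30 (edgeR adjusted p = 2.88e-05) in the infarct zone and 3.03 ± 0.38 (adjusted p = 0.000649) in the remote zone.

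Loxl1, which is needed for elastic fibres, lay between 87.6 and 186 CPM (median 106) in sham and between 306 and 729 CPM (median 630) in untreated MI infarct zones. Loxl2, which also cross-links the collagen of basement membranes, lay between 55.5 and 91.1 CPM (median 65.5) and between 192 and 429 CPM (median 364) in the same groups. Neither gene overlapped between sham and untreated MI in any of the 3 zones. Their log2 fold changes were close, 2.24 ± 0.24 for Loxl1 and 2.26 ± 0.20 for Loxl2 in the infarct zone and 1.63 ± 0.28 and 1.83 ± 0.24 in the remote zone. The edgeR adjusted p in the infarct zone was 7.58e-05 for Loxl1 and 4.1e-05 for Loxl2.

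Loxl3 lay between 8.37 and 16.8 CPM (median 9.45) in sham and between 15.1 and 36.4 CPM (median 29.4) in untreated MI infarct zones. The overlap came from sham replicate 5 and MI replicate 1. Its log2 fold change was 1.39 ± 0.22 in the infarct zone (edgeR adjusted p = 0.000772), 1.02 ± 0.21 at the border and 0.83 ± 0.19 in remote tissue. Loxl4, the remaining family member and not one of the 10 genes, lay between 7.83 and 15.3 CPM in untreated MI and between 8.13 and 15.8 CPM in sham infarct zones (log2 fold change 0.03 ± 0.19, edgeR adjusted p = 0.904).

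**Figure D2:**
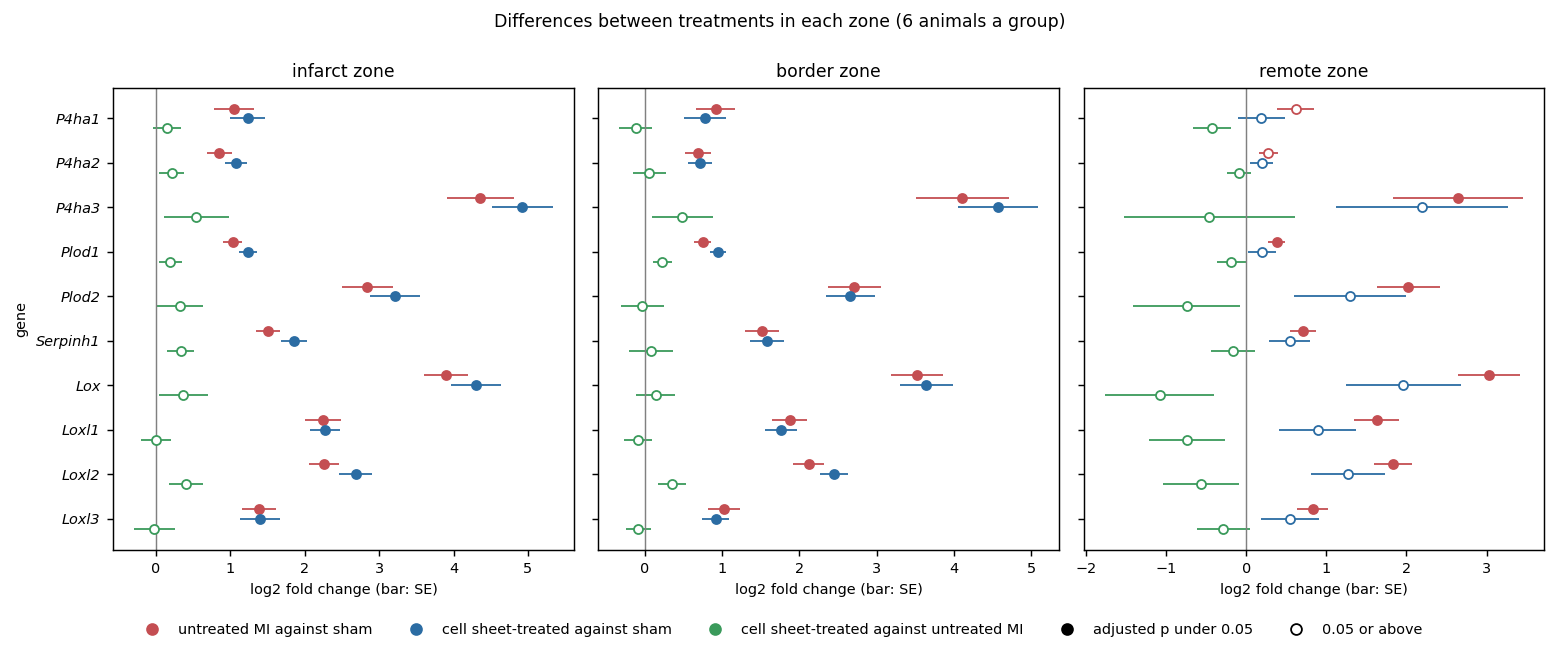
Log2 fold change with its SE for each gene (rows) in the 3 zones (panels), for untreated MI against sham, cell sheet-treated against sham and cell sheet-treated against untreated MI. Filled points passed an adjusted p of 0.05, and none of the cell sheet-treated against untreated MI points did with 6 animals a group.

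Most of the other genes of the pathway were higher too. Of 35 further genes listed, 33 were analysed here. Among these genes for collagen hydroxylation, glycosylation, folding, export, processing and cross-linking and for the fibrillar substrates themselves, 25 were higher and 2 lower when infarct zones of untreated MI hearts were compared with sham. In the border zone 24 were higher and 1 lower, and in the remote zone 20 and 1. The substrates led, with Col1a1 higher by 3.70 and elastin (Eln) by 3.36 on the log2 scale in the infarct zone. Fkbp10, a chaperone that works with lysyl hydroxylation, was higher by 2.37, Pcolce, an enhancer of propeptide cleavage, by 2.37, and the prolyl 3-hydroxylase family members P3h3 and P3h4 by 1.84 and 1.70. Colgalt2, a collagen galactosyltransferase, was lower, with a log2 fold change of -0.72 ± 0.25 (edgeR adjusted p = 0.0279).

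A list of 12 hypoxia-inducible genes was set beside P4ha1, P4ha2 and Plod2. In untreated MI against sham infarct zones, 3 of the 12 were higher and 6 lower, with a median log2 fold change of -0.41. Ca9, a carbonic anhydrase, was higher by 2.69 ± 0.51, while Pdk1, a kinase that limits pyruvate oxidation, was lower, at -1.91 ± 0.44. The summed level of the list lay between 1450 and 2820 CPM in untreated MI and between 2410 and 4310 CPM in sham infarct zones. The lowest sham value was that of replicate 5, and the other sham libraries lay between 3670 and 4310 CPM, above all of untreated MI. Of the 15758 genes tested, 3580 were called higher and 4286 lower. The cardiomyocyte level moved along, at 3450 to 33700 CPM in untreated MI and 20900 to 64700 CPM in sham (50500 to 64700 CPM without sham replicate 5). The part of the cardiomyocyte level in the lower level of the list was not tested.

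The 10 genes shared a direction but not a size, so proportions within the families were set side by side. For every 100 counts of Plod1, sham infarct zones held 32.7 to 104 counts of Plod2 (median 40.5), untreated MI 110 to 207 (median 172) and cell sheet-treated 111 to 234 (median 197). The sham libraries did not overlap with either infarcted group, and the highest sham value was that of replicate 5. For every 100 counts of Loxl1, the same groups held 16.1 to 29.5 (median 22.3), 58.2 to 91.8 (median 65.8) and 49.3 to 114 (median 97.3) counts of Lox, again without overlap between sham and infarcted hearts. For every 100 counts of P4ha1, P4ha3 had 1.15 to 2.99, 8.29 to 28.7 and 9.76 to 34.6 counts. In contrast, P4ha2 had 19 to 68.5 counts per 100 of P4ha1 in sham and 33.2 to 43.9 in untreated MI, so that the groups overlapped, and Loxl2 had 49 to 70 counts per 100 of Loxl1 in sham and 54 to 62.8 in untreated MI. In cell sheet-treated infarct zones Loxl2 had 61.6 to 90.8 counts per 100 of Loxl1 (median 79.4, against 59.6 in untreated MI). In border zones the range was 67.6 to 135 (median 91.6), against 59.5 to 80.6 (median 66.3) in untreated MI, with overlap in both zones. These proportions are within a library, so scaling does not enter them, and they were not tested.

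**Figure D3:**
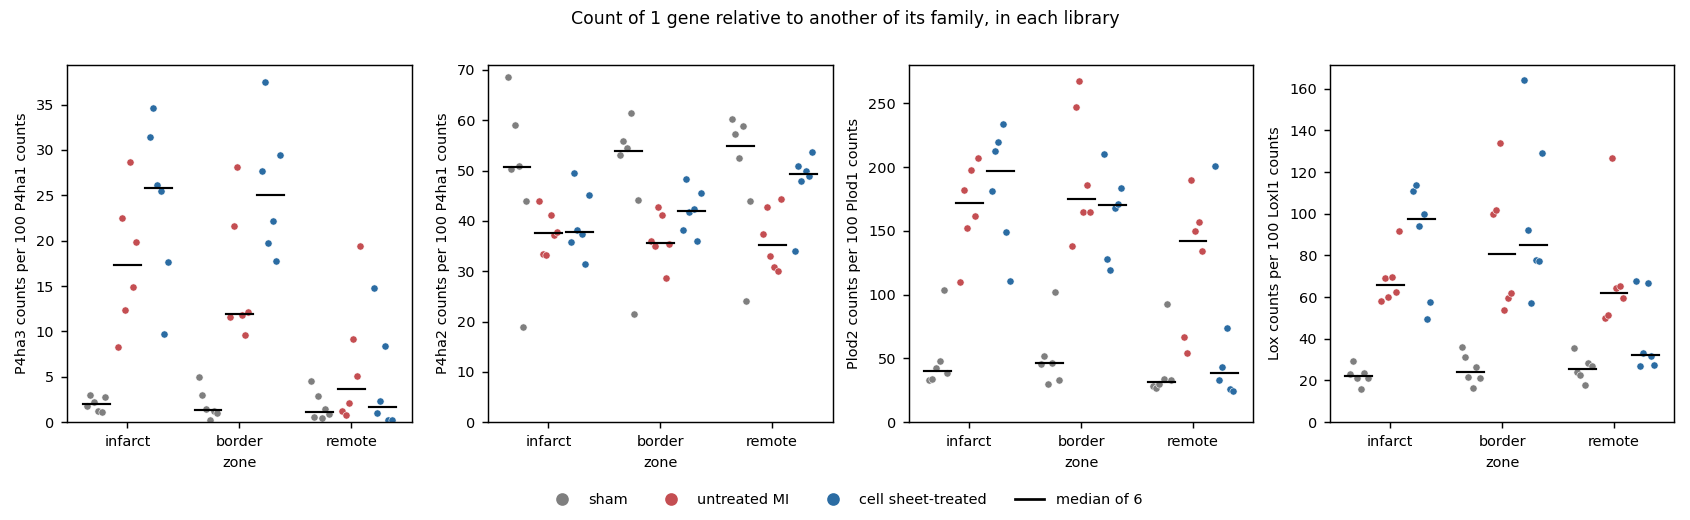
Counts of P4ha3 and P4ha2 per 100 counts of P4ha1, of Plod2 per 100 of Plod1 and of Lox per 100 of Loxl1 in each library (points) by zone and treatment, with the median of 6 as a line. In the infarct zone Plod2 per 100 Plod1 had a median of 40.5 in sham and 172 in untreated MI, while P4ha2 per 100 P4ha1 overlapped between these groups.

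To compare the genes with their main substrate, the counts were also scaled to the sum of Col1a1, Col1a2 and Col3a1. On this scale 2 of the 10 genes were higher and 7 lower in untreated MI infarct zones against those of sham. Of all genes, 0.438% were called higher and 96.8% lower, as the scale itself moves nearly every transcript down where collagen is up. The median log2 fold change was -1.15 for the 10 genes and -2.93 for all genes. The higher pair were P4ha3 (1.10 ± 0.38, edgeR adjusted p = 0.0112, groups overlapping) and Lox (0.82 ± 0.23, adjusted p = 0.00297). Per 1000 collagen counts, Lox lay between 6.38 and 11.4 in sham and between 13.5 and 17.3 in untreated MI, with no overlap. On this scale 8 of the 10 genes did not overlap. The share of all genes without overlap was not counted, so this count cannot be read as particular to these genes. Plod2 was not called (-0.22 ± 0.26, adjusted p = 0.412), and its counts per 1000 collagen counts, 8.95 to 21.6 in sham and 9.99 to 12.8 in untreated MI, overlapped.

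The lower genes on this scale were P4ha2 (-2.21 ± 0.27), Plod1 (-2.01 ± 0.27), P4ha1 (-1.99 ± 0.30), Loxl3 (-1.65 ± 0.25), Serpinh1 (-1.53 ± 0.33), Loxl1 (-0.78 ± 0.26) and Loxl2 (-0.77 ± 0.23), with edgeR adjusted p values of at most 0.00881. Serpinh1 had 133 to 227 counts per 1000 collagen counts in sham and 43.3 to 83.6 in untreated MI. The border zone gave the same counts, 2 higher and 7 lower (0.352% and 96.3% of all genes), with P4ha3 at 1.15 ± 0.45 and Lox at 0.71 ± 0.26.

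**Figure D4:**
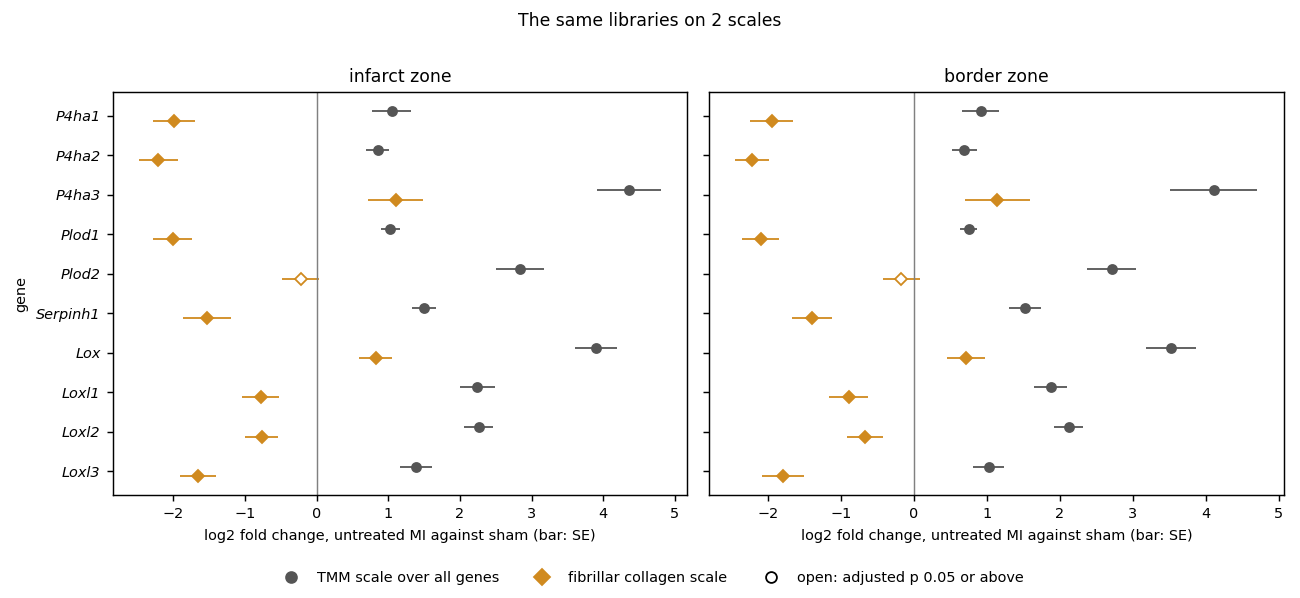
Log2 fold change with SE of untreated MI against sham in the infarct and border zones, on the scale of all genes (circles) and on the scale of fibrillar collagen counts (diamonds). P4ha3 (1.10) and Lox (0.82) stayed above 0 on the collagen scale in the infarct zone, Plod2 (-0.22, open) was not called and the other 7 genes lay below 0.

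Within the untreated MI hearts, the infarct zone was compared with the remote zone of the same animal. All 10 genes were higher in the infarct zone (18.3% of all genes were called higher), each in 6 of 6 animals except Lox, which was higher in 5 of 6. The log2 fold changes lay between 0.42 ± 0.10 for Plod1 and 2.48 ± 0.51 for P4ha3 (edgeR adjusted p = 0.0157 and 0.0107). Lox passed in 2 of the 6 fits that left out 1 animal. Without the animal as a block 6 of the 10 genes passed, where 2859 of 15901 genes were called higher. Between the border and remote zones of the same hearts 0 of 10 genes passed in edgeR, as did 0% of all genes, although 9 of the 10 and 5943 of all genes had an unadjusted p under 0.05. The lowest adjusted p of any gene was 0.0751. DESeq2 called 9 of the 10, and 4347 of all genes. Serpinh1, with a log2 fold change of 0.94 ± 0.25, was higher in the border zone in 6 of 6 animals (edgeR adjusted p = 0.0751). Without the block Serpinh1 passed (edgeR adjusted p = 0.0243), where 1901 of 15738 genes were called higher.

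Between the anterior wall and the septum of sham hearts edgeR called only Plod1 of the 10 genes (DESeq2 called 2), and it was lower (16.4% of all genes were), at 78.1 to 92.3 CPM against 94.6 to 109 CPM, in 6 of 6 animals (-0.22 ± 0.06, edgeR adjusted p = 0.00865). The effect of MI in the infarct zone exceeded that in the remote zone for 9 of 10 genes in a test of the difference itself (13.6% of all genes), by 0.44 ± 0.15 for P4ha1 up to 0.89 ± 0.28 for Lox. The count was 6 without sham replicate 5, as P4ha1, Plod2 and Lox then no longer passed (edgeR adjusted p = 0.0596, 0.0519 and 0.0591), and the same 3 genes were lost without sham replicate 1. P4ha3 had the largest difference, 2.07 ± 0.78, and did not pass (edgeR adjusted p = 0.0590). It gained the call in 5 of 15 alternative fits (edgeR adjusted p from 0.0327 to 0.244). Of the 12 fits that left out 1 animal, P4ha1 passed in 3, Lox in 8 and Plod2 in 9. Without the animal as a block, 2 of the 10 genes passed this test, where 595 of 16445 genes were called higher.

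Cell sheet-treated hearts were also above sham hearts for all 10 genes in the infarct zone (28.6% of all genes were called higher) and for all 10 in the border zone (20.4%). P4ha3 was 30.4-fold and Lox 19.7-fold higher in infarct tissue. In the border zone the log2 fold changes lay between 0.72 ± 0.16 for P4ha2 and 4.57 ± 0.52 for P4ha3, with the weakest call for P4ha1 (0.78 ± 0.27, edgeR adjusted p = 0.0333), which passed in 4 of the 12 fits that left out 1 animal (0.68, adjusted p = 0.0686, without cell sheet replicate 1). The libraries of the 2 groups did not overlap for 8 of the 10 genes in either zone, against 11.7% and 9.55% of all genes. In the remote zone 0 of 10 genes passed in edgeR or DESeq2, and 0.0066% of all genes did, while Lox and Loxl2 had an unadjusted p of 0.0171 and 0.0170 (1520 of all genes were under 0.05, and DESeq2 called 173). In a single fit of all 9 groups 2 of the 10 passed in this zone, as did 183 of the 17743 genes tested.

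The comparison that bears on the treatment is that of cell sheet-treated with untreated MI hearts. No difference in any of the 10 genes passed in the infarct zone, and here 0% of all genes passed in edgeR. None of the 10 had an unadjusted p under 0.05 (1341 of all genes did), and DESeq2 called 0 of the 10 and 56 of all genes. In the border zone 0 of 10 passed with either tool and 0 had an unadjusted p under 0.05, where 18% of all genes passed in edgeR. With the infarct and border counts of each animal summed, 0 of 10 passed with either tool (12.1% of all genes passed in edgeR) and 1, Loxl2, had an unadjusted p under 0.05.

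In both zones every log2 fold change of the 10 genes was smaller than 2 SE. In infarct tissue they ran from -0.02 ± 0.27 for Loxl3 to 0.54 ± 0.43 for P4ha3, with 0.33 ± 0.18 for Serpinh1. Loxl2 came closest to a difference in the border zone, with 309 to 511 CPM (median 453) in cell sheet-treated and 213 to 411 CPM (median 354) in untreated MI hearts (0.35 ± 0.19, edgeR adjusted p = 0.211). Plod2 in the border zone lay between 179 and 420 CPM (median 294) in cell sheet-treated and between 149 and 474 CPM (median 273) in untreated MI hearts (-0.03 ± 0.28, adjusted p = 0.948). Of the 33 other pathway genes, 0 passed in infarct tissue and 1 at the border, Mia3, a procollagen export receptor, which was higher by 0.39 ± 0.09 (edgeR adjusted p = 0.0113).

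On the scale of fibrillar collagen, all 10 genes had a negative log2 fold change in cell sheet-treated against untreated MI hearts in both zones. The scale moved most transcripts down: the median was -0.40 for the 10 genes and -0.72 for all genes in the infarct zone, and -0.60 and -0.70 in the border zone. In the infarct zone 0 of 10 passed in edgeR (0% of all genes), with Loxl1 and Loxl3 the only ones of the 10 with an unadjusted p under 0.05 (5321 of all genes). In the border zone 3 passed and were lower (32.3% of all genes were): P4ha1 (-0.81 ± 0.22, edgeR adjusted p = 0.0181), P4ha2 (-0.61 ± 0.19, adjusted p = 0.0298) and Plod2 (-0.67 ± 0.22, adjusted p = 0.0330). P4ha1 had 2.88 to 4.44 counts per 1000 collagen counts in cell sheet-treated and 4.94 to 8.21 in untreated MI border zones, and Plod2 5.79 to 9.15 and 10.8 to 13.7, so that neither overlapped. In all, 5 of the 10 genes did not overlap in the border zone, among them Serpinh1 and Lox, which were not called. The share of all genes without overlap was not counted on this scale, so this count cannot be read as particular to these genes. P4hb was lower as well (-0.98 ± 0.25, edgeR adjusted p = 0.0135). The count of 3 was 7 without MI replicate 3, 5 without cell sheet replicate 3, and 1 without any one of cell sheet replicates 1, 2, 4, 5 and 6 or MI replicates 4, 5 and 6.

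In the remote zone 0 of 10 genes passed between cell sheet-treated and untreated MI hearts (17.1% of all genes passed in edgeR). None had an unadjusted p under 0.05, and DESeq2 called 0 of the 10. All 10 log2 fold changes were negative, from -0.09 ± 0.15 for P4ha2 to -1.08 ± 0.69 for Lox. Cell sheet replicate 1 decided these values. Lox was at 404 CPM in that animal and at 24.8 to 143 CPM in the other 5, against 96.8 to 352 CPM in untreated MI and 19.5 to 54.7 CPM in sham remote zones.

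Without cell sheet replicate 1, 8 of the 10 genes were lower in cell sheet-treated than in untreated MI remote zones, where 20.8% of all genes were called lower. This animal stood out by its levels of these same 10 genes, so the adjusted p values without it are descriptive. The log2 fold change was then -2.15 ± 0.50 for Lox (edgeR adjusted p = 0.00456), -1.96 ± 0.41 for Plod2 (adjusted p = 0.00239), -1.44 ± 0.30 for Loxl1 and -1.22 ± 0.33 for Loxl2. P4ha2 (-0.22 ± 0.12, adjusted p = 0.152) and P4ha3 (-2.05 ± 0.95, adjusted p = 0.0984) did not pass. Plod2 lay between 23.4 and 90.3 CPM in these 5 animals, between 69.2 and 233 CPM in untreated MI and between 26.3 and 89.2 CPM in sham remote zones. Marker levels of several cell types moved along. The macrophage level lay between 326 and 628 CPM in the 5 animals and between 692 and 2910 CPM in untreated MI, and the cardiomyocyte level between 44300 and 63100 CPM and between 26600 and 42100 CPM, both without overlap. The myofibroblast level overlapped, at 219 to 527 CPM and 323 to 2210 CPM. The part of these cell types in the result was not tested. Of the 12 animals left out in turn, this was the only one without which any of the 10 genes passed.

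**Figure D5:**
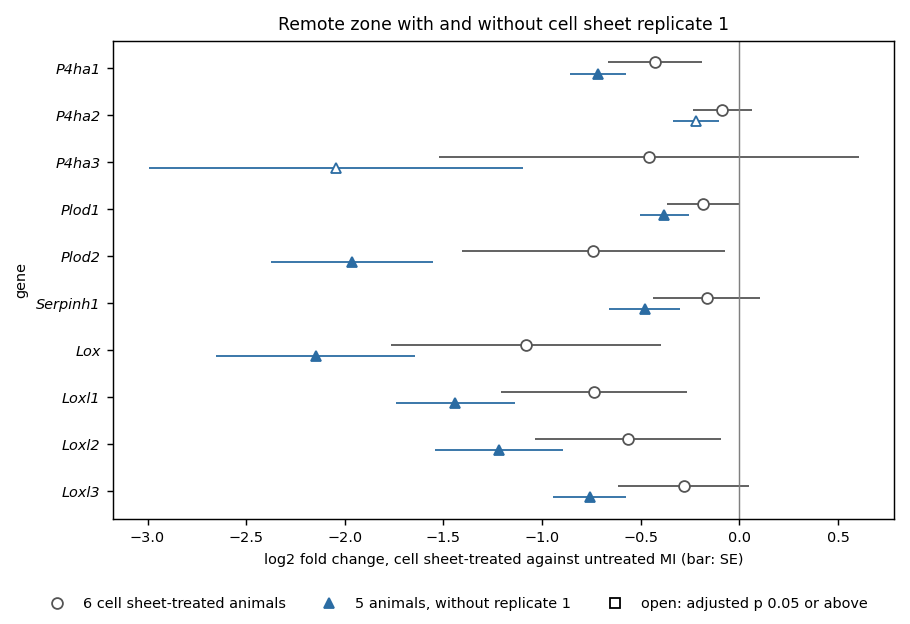
Log2 fold change with SE of cell sheet-treated against untreated MI in the remote zone, with all 6 cell sheet-treated animals (circles) and without replicate 1 (triangles). With 6 animals 0 of 10 genes passed (open), and with 5 animals 8 did (filled), Lox moving from -1.08 to -2.15.

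Zones within the cell sheet-treated hearts were compared in the same way. All 10 genes were higher in the infarct than in the remote zone (31.5% of all genes were called higher) and all 10 in the border than in the remote zone (29.2%). In the first comparison P4ha3 was higher by 4.45 ± 0.81, Lox by 3.02 ± 0.49 and Plod2 by 2.78 ± 0.50 on the log2 scale (edgeR adjusted p = 0.00402, 0.00337 and 0.00383), each in 6 of 6 animals. In the second, Loxl1 (1.61 ± 0.43) and Loxl3 (0.88 ± 0.32) were higher in 5 of 6 animals and the other genes in 6 of 6. Loxl3 (edgeR adjusted p = 0.0461) passed in 1 of the 6 fits that left out 1 animal, the one without cell sheet replicate 1 (1.2 ± 0.16, adjusted p = 0.00243).

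A difference of the cell sheet's effect from one zone to another was tested as an interaction. For border against infarct zone, 0 of 10 genes passed in edgeR (0% of all genes) and 0 had an unadjusted p under 0.05 (2012 of all genes did). For border against remote zone, 0 of 10 passed in edgeR (0% of all genes), with 5 of the 10 and 3430 of all genes at an unadjusted p under 0.05. The largest of these were Lox at 2.01 ± 0.66 (edgeR adjusted p = 0.146) and Plod2 at 1.49 ± 0.61 (adjusted p = 0.21). Without cell sheet replicate 1, Loxl1 (1.43 ± 0.26, adjusted p = 0.0377) and Loxl2 (1.60 ± 0.31, adjusted p = 0.0430) passed.

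For all 10 genes the mean levels took the same order over the 9 groups in outline. The 3 sham groups were lowest, followed by the cell sheet-treated remote zone, the untreated MI remote zone and then the infarct and border zones of both infarcted groups. The place of the cell sheet-treated remote zone rested on replicate 1. Without that animal its mean lay below that of at least 1 sham group for P4ha1 (73.1 CPM, against 86.9 CPM in sham border zones), P4ha2 (36.8 against 37.4 CPM), Plod2 (42.8 against 46.1 CPM), Loxl1 (127 against 134 CPM) and Loxl3 (9.69 against 11.1 CPM). These sham border means include sham replicate 5. Without it they were 71.3 CPM for P4ha1, 37.2 CPM for Plod2 and 121 CPM for Loxl1, below the cell sheet-treated remote means. For P4ha2 (37.9 CPM) and Loxl3 (9.83 CPM) they stayed above. The neighbours cell sheet-treated remote and sham remote overlapped and did not pass for any gene, and neither did cell sheet-treated and untreated MI hearts within a zone. For 9 of the 10 genes the cell sheet-treated infarct zone had the highest mean, and for Loxl3 it was that of untreated MI (28.3 ± 7.37 CPM against 28 ± 11.3 CPM, SD, n = 6).

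Across the 54 libraries the 10 genes varied together, with a median Pearson r of 0.91 between pairs on log2 CPM and of 0.712 after the mean of each group was taken off. These are descriptions over libraries that share animals, depth and tissue composition. P4ha2 followed the others least, with an r of 0.422 with Loxl3 and 0.427 with Loxl1 once group means were off. With group means off, the genes outside the 10 most like each member were Col3a1 for Loxl2 (r = 0.935), Mmp14, a collagenase of the cell surface, for Serpinh1 (r = 0.91), Dpysl3 for Loxl1 (r = 0.97) and Aldh18a1, an enzyme of proline synthesis, for Plod2 (r = 0.945). The corresponding genes were Ppic for P4ha3 (r = 0.874), Creld2 for P4ha1 (r = 0.909), Cald1 for P4ha2 (r = 0.845), Pxdn for Plod1 (r = 0.88), Ubtd2 for Lox (r = 0.931) and Atp8b2 for Loxl3 (r = 0.885).

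The summed myofibroblast level had an r of 0.964 with Plod2, 0.961 with Loxl1 and 0.847 with P4ha2 over the 54 libraries, and of 0.897, 0.88 and 0.543 with group means off. The macrophage level had an r of 0.919 with P4ha1 (0.831 with group means off), above the 0.884 (0.763) of the myofibroblast level with this gene. With Plod2 its r was 0.867 (0.745), and it was lowest with P4ha2, at 0.671 (0.232). Sham replicate 5, high in the macrophage level and in P4ha1, is among these libraries, and no r was computed without it. Other lists were not alike: with P4ha1 the chondrocyte or bone level had an r of 0.878 (0.783) and the fibroblast level 0.0672 (-0.265). The cardiomyocyte level ran the other way, with r between -0.828 for Serpinh1 and -0.665 for Loxl1. These values are again descriptions, and what part cell numbers had in them was not tested.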

How the data were processed

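Poly-A RNA was sequenced paired-end, and the authors aligned the reads with STAR to mRatBN7.2 (the program that counted and its strand setting are not given in the sources used here). The deposited values are raw counts per gene and library. They hold 5 summary rows, which name no gene, took 17.0% to 42.8% of each library's counts and were left out.

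Each comparison was fitted to the deposited counts of its own groups with edgeR 4.0.16 (R 4.3.3, limma 3.58.1; quasi-likelihood F test, TMM, filterByExpr), with Benjamini-Hochberg adjustment over all genes and a threshold of 0.05. The SE is the log2 fold change divided by the root of F. Zones of the same heart were compared with the animal as a block, since a replicate number marks 1 animal across zones and different rats across treatments. On the collagen scale, library size was the summed count of 3 genes. Correlations used log2(CPM + 0.1). No 2 libraries of a group agreed within sampling noise (chi-square per degree of freedom at least 7.97 over 135 pairs). The scripts were tested on simulated data. DESeq2 1.42.0, no TMM, no filter, blocks and leaving out each animal were alternatives.

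The 10 genes and all lists were chosen with earlier results of these data known. Values are named for all 10 genes, and for other lists the 1 or 2 genes that passed with the largest change, the partners P4hb, Plod3 and Loxl4, and Col1a1.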

Additional observations from a re-analysis of the deposited data

Results flagged for a closer look

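In 8 of the 90 combinations of gene and group, the highest or lowest library lay farther from the other 5 than Dixon's limit for 6 values, where chance gives about 4.5 (1 in 20). MI replicate 1 was low for P4ha1 (92.6 CPM) and Loxl1 (306 CPM) in the infarct zone and for Plod1 (108 CPM) in the border zone. Cell sheet replicate 1 was high for P4ha1 in the remote zone (170 CPM), and cell sheet replicate 6 was low for Loxl1 in the infarct zone (380 CPM). Sham replicate 5 was high for Plod2 in the remote zone (89.2 CPM) and for Lox in the infarct zone (44 CPM), and sham replicate 3 was low for Serpinh1 in the border zone (422 CPM). In the border zone the cardiomyocyte level of sham replicate 3 was the highest of its group (60100 CPM), and the myofibroblast level of MI replicate 1 the lowest of its group (779 CPM). The marker levels of the other animals are given with the description of the libraries, and their part in these values was not tested.

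The effect of MI against sham was larger in the infarct than in the remote zone in a test of the difference, on the log2 scale by 0.886 for Lox, 0.841 for Plod2, 0.813 for Serpinh1, 0.649 for Loxl1, 0.647 for Plod1, 0.568 for P4ha2, 0.546 for Loxl3, 0.487 for Loxl2 and 0.44 for P4ha1. Lox, Plod2 and P4ha1 no longer passed without sham replicate 5 (edgeR adjusted p = 0.0591, 0.0519 and 0.0596) and lost the call in 5, 4 and 11 of the 15 alternatives. The change in the cardiomyocyte markers also differed between these zones (7 of 8 lower at the infarct and 3 of 8 lower at the remote site), and its part in the result was not tested.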

How the results depend on the processing

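Each count of the 10 genes passing was computed again without the filter on low counts, with or without a replicate block, and without each animal. DESeq2 was run for all but the differences of effects between zones and the collagen scale, and a fit without TMM for all but the collagen scale, which has none and was instead tried with other collagens. The counts of untreated MI against sham stayed at 10 and 10 in the infarct and border zones when 1 animal was left out and ran from 7 to 10 in the remote zone. The counts of cell sheet-treated against sham ran from 10 to 10 and from 9 to 10 in the infarct and border zones. Counts that moved were those of infarct against remote zone in untreated MI hearts (6 with no replicate block), border against remote zone in the same hearts (9 with DESeq2, 1 with no replicate block), infarct against remote zone in sham hearts (2 with DESeq2, 0 with no replicate block, 1 to 2 without 1 animal, the 2 being without sham replicate 5), border against remote zone in cell sheet-treated hearts (7 with no replicate block, 9 with no low-count filter, 9 to 10 without 1 animal, Loxl3 losing its call in 7 of 10 alternatives), the difference of the MI effect between infarct and remote zones (2 with no replicate block, 6 to 9 without 1 animal, the 6 being without sham replicate 1 or 5), cell sheet-treated against sham in the remote zone (2 in a single fit of 9 groups), cell sheet-treated against untreated MI in the remote zone (0 to 8 without 1 animal, the 8 being without cell sheet replicate 1), the difference of that effect between border and remote zones (0 to 2, the 2 likewise) and, on the collagen scale, cell sheet-treated against untreated MI in the border zone (1 with no low-count filter, 0 with the replicate block, 1 to 7 without 1 animal). For infarct against remote zone in untreated MI hearts, Lox, P4ha1, Plod2 and Loxl2 lost their calls in 5, 3, 2 and 1 of 10 alternatives. That count therefore also moved without some single animals, as Lox lost its call in several of those fits. The cause of these shifts in counts was not tested. Of the alternatives for single genes, 3083 kept direction and side of the threshold, 84 lost a call, 42 gained one, 71 moved and 0 reversed.

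By the design, equal replicate numbers in different treatments are different rats. In the 9 comparisons of treatments within a zone, at most 3 of the 6 pairs of equal number deviated together (r over 0.1). Between infarct and remote zones of the same hearts, 6 pairs did in sham, 5 in untreated MI and 4 in cell sheet-treated hearts. Between border and remote zones, 2 did in untreated MI and 4 in cell sheet-treated hearts. This check alone therefore cannot decide pairing, and the block by animal rests on the titles. Without TMM the median of all genes moved from -0.02 to 0.24 for untreated MI against sham in the infarct zone, and the split of calls from 3580 higher and 4286 lower to 5587 and 2735. Depth limits only P4ha3, with as few as 3 counts.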
